A study of Mus musculus with 4 samples.

Results

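The 9 genes described here are those of a short list of reproductive hormones, hormone receptors and a regulator of the testis: Insl3, Rxfp2, Lhcgr, Fshr, Prlr, Inha, Inhbb, Nr5a1 and Amhr2. They were found by symbol among the 55450 genes of the deposited tables, and all 9 were present. The data are droplet single-cell transcriptomes (10x 3' chemistry, version 3) of enzymatically dissociated mouse testis, with 2 libraries labelled HFD (high-fat diet) and 2 labelled ND (normal diet). The labels give the diet and the tissue, and the strain, age, length of feeding and number of mice per library are not given in the sources used here. Every p-value therefore measures the spread between these libraries, which may be technical.

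Insulin-like 3 is a relaxin-family hormone of Leydig cells, the steroid-making cells between the tubules, and RXFP2 is its receptor. Luteinizing hormone acts on Leydig cells through LHCGR, and follicle-stimulating hormone acts on Sertoli cells, the somatic cells inside the tubules, through FSHR, both raising cyclic AMP. Inhibin B, a dimer of the products of Inha and Inhbb, is the Sertoli cell hormone that feeds back on the pituitary. NR5A1 (steroidogenic factor 1) is a transcription factor of steroid-making and supporting cells of the gonad.

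A UMI is a molecular tag counted once per captured RNA molecule. The libraries held 13561 to 15290 barcodes, against about 13000 cells per channel stated in the labels, and 143748262 to 154221188 UMIs. After filtering, 55115 cells were kept (13156, 13575, 14468 and 13916 in HFD 1, HFD 2, ND 1 and ND 2). Pairs of libraries shared 42 to 65 barcodes, which is 0.310% to 0.465% of the first library of the pair. Cells were grouped into clusters without using the 9 genes, and a cluster was called Leydig-like, Sertoli-like and so on from lists of marker genes that hold none of the 9. Clusters that met no list's criteria stayed unnamed and held 37.4% to 43.4% of a library. The Leydig-like class held 1181 cells (212, 235, 367 and 367) and the Sertoli-like class 1372 (302, 314, 397 and 359). All 7 Leydig markers were detected in the Leydig-like class and summed to 12414 to 15427 CPM, counts per 1e6 UMIs (the UMIs of all cells of that class in a library). In Sertoli-like cells all 11 Sertoli markers were detected at a sum of 3456 to 4712 CPM, while the markers of elongating spermatids summed to 66309 to 79389 CPM there.

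Insl3 was by far highest in Leydig-like cells. Its level there was 5393 and 5047 CPM (HFD 1 and HFD 2), and 7688 and 4681 CPM (ND 1 and ND 2). ND 1 stood above the others, and the HFD values lay between the ND values. The mean over the 4 libraries was 5702 ± 1356 CPM (SD, n = 4), and the class next in order, macrophage-like cells, had 55.1 ± 76.2 CPM. Of the 52 Insl3 UMIs in the macrophage-like cells of HFD 1, 49 came from 1 cell. The share of cells with at least 1 UMI depends on depth, so it was also taken after thinning each cell to 2000 UMIs and leaving out shallower cells. After thinning, Insl3 was found in 100%, 99.6%, 100% and 99.7% of Leydig-like cells (HFD 1, HFD 2, ND 1 and ND 2). The median Leydig-like cell held 10, 9, 15 and 9 Insl3 UMIs per 2000. Macrophage-like cells, which should lack this hormone, had a UMI of it in 3.56% of 281 thinned cells. Their median depth was 2490 UMIs, against 6067 in Leydig-like cells. The shares in thinned Sertoli-like cells (1.96%), pachytene and later spermatocytes (0.400%) and round spermatids (0.882%) were below that. In 123 thinned fibroblast-like cells the share was higher, at 7.32%. The source of these UMIs, such as free RNA or reads of an exon shared with another gene (below), was not tested.

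Insl3 lies at chr8:71689214-71690575 on the plus strand (GRCm38, GENCODE M21) inside the span of Jak3, a cytokine receptor kinase gene on the same strand. Insl3 has 2 exons. Exon 1, chr8:71689214-71689432, shares no base with an exon of Jak3. Exon 2, chr8:71690172-71690575, is 404 bases long, of which 191 are coding in Insl3, and all 404 are also part of Jak3 exons. Reads of a 3' assay gather at that end, and the rule that assigned them to one gene is not given in the sources used here, so the Insl3 and Jak3 counts are uncertain in that exon. The splice junctions that tell the transcripts apart are shown with 15 bases before the junction in lower case and 15 bases of the shared exon in capitals.
Insl3-201: tggagacccgggaccGGGAGCTGCTGCAGT
Jak3-201: cagccaggggcgagaGGGAGCTGCTGCAGT
The capitals are the same in both, and a read that begins in the shared exon carries nothing that separates the genes. Jak3 counts in Leydig-like cells were 57.9, 72.4, 83.9 and 80.7 CPM in HFD 1, HFD 2, ND 1 and ND 2.

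The stretches before the start sites of Insl3, Lhcgr and Amhr2 are shown as those of 3 of the 5 members whose mean level was highest in the Leydig-like class (for Amhr2 with the Sertoli-like class close behind), to set windows with and without the letters below side by side. The other members of that kind are Prlr and Nr5a1. The sequences are from RefSeq (GRCm38.p6) and are written on the gene's strand. The stretch of Insl3 has 212 bases and those of Lhcgr and Amhr2 have 250. Those of Insl3 and Amhr2 end at the base before the GENCODE start of the gene, and that of Lhcgr ends short of it. Capitals mark CAAGGTC and CAAGGCC, forms of the element that NR5A1 is known to bind, which were searched on both strands.
Insl3, chr8:71689002-71689213, plus strand: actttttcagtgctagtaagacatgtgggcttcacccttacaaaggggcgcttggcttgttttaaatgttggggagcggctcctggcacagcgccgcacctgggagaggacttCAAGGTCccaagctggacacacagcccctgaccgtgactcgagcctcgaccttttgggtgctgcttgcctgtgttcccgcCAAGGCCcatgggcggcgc
Lhcgr, chr17:88792015-88792264, minus strand: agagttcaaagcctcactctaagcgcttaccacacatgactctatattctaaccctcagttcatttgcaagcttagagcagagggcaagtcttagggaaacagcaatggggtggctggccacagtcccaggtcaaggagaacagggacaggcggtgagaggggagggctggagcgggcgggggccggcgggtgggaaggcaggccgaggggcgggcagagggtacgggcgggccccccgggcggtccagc
Amhr2, chr15:102445117-102445366, plus strand: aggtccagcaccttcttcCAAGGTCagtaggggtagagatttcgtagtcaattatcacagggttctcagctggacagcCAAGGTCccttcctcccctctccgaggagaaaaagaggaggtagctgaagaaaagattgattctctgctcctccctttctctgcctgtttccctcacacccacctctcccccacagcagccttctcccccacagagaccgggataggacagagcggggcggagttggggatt
Insl3 held 1 of each form and Amhr2 held CAAGGTC at 2 places, while Lhcgr held neither. Neither form occurs in the listed windows of Inha, Inhbb, Rxfp2, Prlr or Fshr, and Nr5a1 was not matched in the promoter table. Either form was found in 8.28% of 32851 promoter windows of 250 bases (CAAGGTC in 3.32%, CAAGGCC in 5.16%). The forms and the genes shown were chosen after the promoters had been seen, and a match is a stretch of letters, not a measured binding site.

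Rxfp2, the receptor of the INSL3 hormone, was not a Leydig-like gene in these libraries: it was lowest there on average, overlapping elongating spermatids, with 7.0, 4.14, 5.13 and 3.71 CPM in HFD 1, HFD 2, ND 1 and ND 2. The gene lies at chr5:150018675-150082184, plus strand, and its span overlaps Gm42558 on the same strand (265 bases) and the antisense gene Gm42557 (14927 bases). Its highest class was the pachytene and later spermatocytes (germ cells in late meiotic prophase and the divisions that follow), with 23.6, 22.6, 22.01 and 25.2 CPM. Every library of that class was above every library of round spermatids, which had 16.7, 16.4, 14.9 and 16.0 CPM. Sertoli-like (16.0 ± 2.55 CPM), macrophage-like (12.9 ± 2.29), lymphocyte-like (16.0 ± 5.20) and fibroblast-like cells (12.5 ± 9.61; all SD, n = 4) overlapped round spermatids or one another. In thinned cells the share with an Rxfp2 UMI was 4.74% in the pachytene and later class, the highest of the 10 named classes. It was 2.79% in Sertoli-like cells and 3.01% in round spermatids, beside 2.85% in macrophage-like, 3.25% in fibroblast-like and 3.35% in lymphocyte-like cells. By this share Sertoli-like cells and round spermatids as a class were close to these shallower classes. Leydig-like cells (0.785%) and elongating spermatids (1.26%) had lower shares, so a reading as background depends on the class taken for comparison. Of the unnamed clusters 5 had mean levels of 24.6 to 27.6 CPM, above the mean of the pachytene and later class. All 5 had the marker list of that class as their best match, at low median depths of 1659 to 3217 UMIs. Their levels therefore do not show that Rxfp2 is higher in another cell type. The pachytene and later class held 39.3% to 50.1% of the Rxfp2 UMIs of a library, and round spermatids a further 25.6% to 34.0%.

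Within the germ cells Rxfp2 differed between clusters. Of the pachytene and later clusters, the one led by Cdk1 and Aurkb, a pair of cell division kinases, had 32.2 ± 2.66 CPM and a UMI in 56.3% of its 2286 cells. The larger cluster of that class had 18.1 ± 0.948 CPM in 4787 cells. Every library of the cluster led by Cdk1 and Aurkb was above every library of the other. Among round spermatid clusters the level ranged from 25.4 ± 1.58 CPM down to 3.80 ± 0.819 CPM, and in the elongating cluster with the lowest level it was 2.73 ± 1.06 CPM (all SD, n = 4). The round spermatid cluster with the highest level was above the one with the lowest in every library. The clusters were formed from gene levels, so their differences are given as a description.

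**Figure D1:**
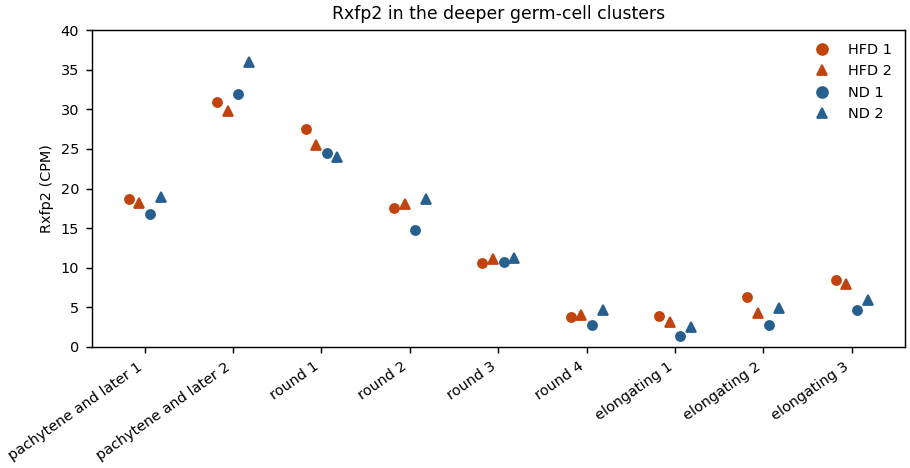
Level of Rxfp2 in CPM (vertical axis) in 9 germ-cell clusters (horizontal axis), with 1 point per library (orange HFD, blue ND). Drawn are the clusters with higher UMI counts per cell of the pachytene and later, round spermatid and elongating spermatid classes. Spermatogonia, early spermatocytes and unnamed clusters are left out, some of which are as deep. The order within round and elongating spermatids was set by the level for the plot. The cluster called pachytene and later 2, with a mean of 32.2 CPM, is highest in all 4 libraries, and the clusters at the right lie below 10 CPM.

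Lhcgr, the receptor of luteinizing hormone, had 219, 197, 208 and 207 CPM in Leydig-like cells of HFD 1, HFD 2, ND 1 and ND 2. The ND values lay between the HFD values. Leydig-like cells held 86.2% to 92.5% of the Lhcgr UMIs of a library. Of 1181 Leydig-like cells 62.7% had an Lhcgr UMI, and after thinning the share was 34.0%, 27.7%, 31.2% and 35.9% by library. The class next in order, fibroblast-like cells, had 5 UMIs in all (19.1 and 15.6 CPM in the HFD libraries and 0 in the ND libraries). Sertoli-like cells had 1 UMI in 1372 cells, and the 388 macrophage-like cells had 0, which allows a share of cells with a UMI of up to 0.773% and sets no limit on cells that express the gene.

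Fshr, the receptor of follicle-stimulating hormone, was barely captured. It had 8 UMIs in the 4 libraries together, 5 of them in Sertoli-like cells (2, 0, 1 and 2). These 5 UMIs lay in 5 of 1372 cells, a share of 0.364% (exact Clopper-Pearson 95% interval 0.118% to 0.848%). No UMI was seen in 1181 Leydig-like cells, which allows a share of cells with a UMI of up to 0.254% (3 cells of the total). With so few UMIs captured, this says nothing of whether those cells express the gene. A difference of Fshr between the diets was not detectable at this depth. These intervals and limits cover counting error only. The genes of the gonadotropin receptors are neighbours on chromosome 17, with Lhcgr at chr17:88716481-88791990 and Fshr at chr17:88984952-89200675, both on the minus strand and 192961 bases apart.

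Prlr, the prolactin receptor, was a Leydig-like and fibroblast-like gene. In Leydig-like cells it had 1037, 1159, 1153 and 1082 CPM (HFD 1, HFD 2, ND 1 and ND 2), and the diets overlapped. In fibroblast-like cells it had 191, 148, 210 and 210 CPM, all below the Leydig-like values and above those of every other class. Thinned cells with a Prlr UMI made up 77.8%, 87.9%, 89.8% and 85.8% of Leydig-like cells and 29.3% of the 123 fibroblast-like cells deep enough to be thinned. In macrophage-like cells that share was 1.42%, and 8 of the 12 Prlr UMIs of this class in HFD 1 came from 1 cell. Both Lhcgr and Prlr were found in 27.8% of 1147 thinned Leydig-like cells, with Lhcgr in 32.4% and Prlr in 86.0%, so Prlr was about as frequent among cells with an Lhcgr UMI as in the whole class. Prlr lies at chr15:10177238-10349180 on the plus strand, and 23801 bases of its span are shared with Gm21973 on the same strand, so reads in shared parts cannot be split between them with certainty.

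Inha, which encodes the alpha subunit of the inhibins, was high in both Sertoli-like and Leydig-like cells. It had 114, 102, 94.0 and 122 CPM in Sertoli-like cells and 89.1, 78.6, 81.6 and 117 CPM in Leydig-like cells (HFD 1, HFD 2, ND 1 and ND 2). The ranges of these classes overlapped, and fibroblast-like cells followed with 11.0 ± 10.2 CPM (SD, n = 4). In thinned cells a UMI of Inha was found in 23.7% of Sertoli-like, 16.0% of Leydig-like and 0.712% of macrophage-like cells. Sertoli-like cells held 27.8% to 30.4% and Leydig-like cells 18.2% to 31.5% of the Inha UMIs of a library. The pachytene and later class held a further 11.6% to 20.4%, at a mean of only 2.14 ± 0.205 CPM (SD, n = 4) in many and deep cells. Inha lies at chr1:75507077-75510366, plus strand.

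Inhbb, which encodes the beta B subunit, was mainly found in Sertoli-like cells, with 11.7, 7.12, 13.1 and 18.9 CPM. The HFD values were below both ND values. These came from 95 UMIs, and Sertoli-like cells held 56.5% to 70.6% of the Inhbb UMIs of a library. Leydig-like cells held 1 UMI, so the class with a high level of the alpha subunit had almost none of the beta B subunit. Inhbb lies at chr1:119415465-119422248, minus strand.

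Amhr2, the type II receptor of anti-Müllerian hormone, was found at like levels in Leydig-like and Sertoli-like cells. The Leydig-like values were 151, 121, 184 and 169 CPM and the Sertoli-like values 157, 143, 138 and 163 CPM (HFD 1, HFD 2, ND 1 and ND 2). In Leydig-like cells both HFD libraries were below both ND libraries, and in Sertoli-like cells the diets overlapped. A UMI was found in 28.1% of thinned Leydig-like, 29.6% of thinned Sertoli-like and 2.85% of thinned macrophage-like cells. The Sertoli markers as a list summed to 1804 to 2003 CPM in Leydig-like cells, with all 11 detected, against 3456 to 4712 CPM in Sertoli-like cells. Of that list, Sox9 and Wt1 had 1 and 2 UMIs in Leydig-like cells, against 122 and 252 UMIs in Sertoli-like cells. Sox9 and Wt1 were picked from the list. Its other markers made up nearly all of the Leydig-like sum, and their single levels are not given here. Whether Sertoli RNA adds to the Leydig-like Amhr2 level was not tested. Amhr2 lies at chr15:102445367-102454633, plus strand.

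Nr5a1 had 151, 123, 139 and 124 CPM in Leydig-like cells (HFD 1, HFD 2, ND 1 and ND 2), where 76.4% to 85.9% of its UMIs were found. The diets overlapped. It followed in fibroblast-like cells with 25.4, 23.4, 8.07 and 41.9 CPM from 14 UMIs, and in Sertoli-like cells with 9.22, 6.02, 10.2 and 14.2 CPM. These classes overlapped each other and lay below the Leydig-like values. Macrophage-like cells (388) and lymphocyte-like cells (319) held 0 UMIs. Nr5a1 lies at chr2:38692656-38714542, minus strand, and 1867 bases of its span overlap the antisense gene Nr5a1os.

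**Figure D2:**
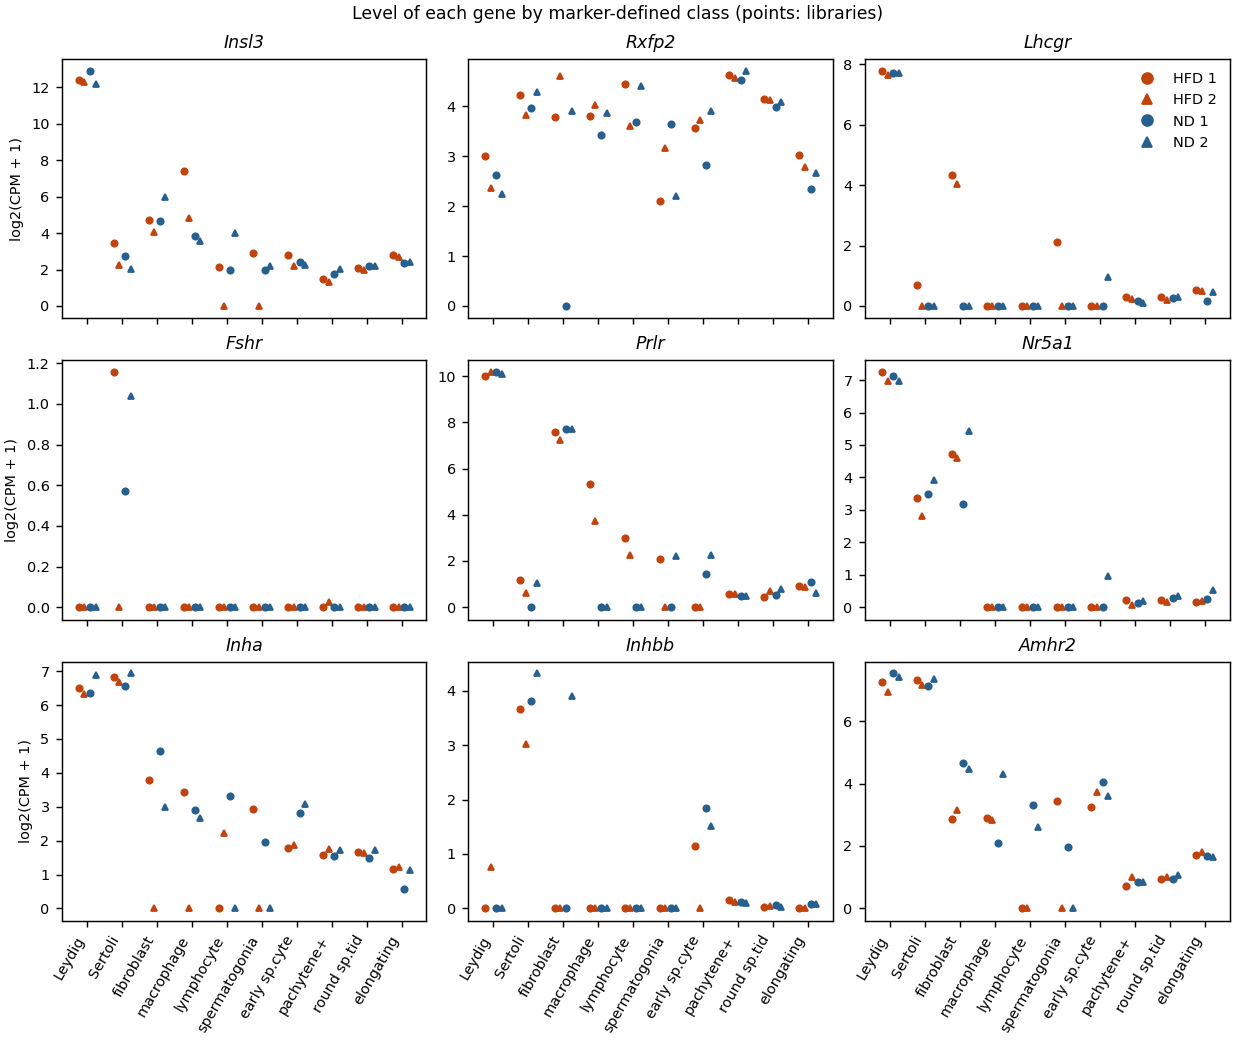
Level of each of the 9 genes, as log2(CPM + 1), in 10 marker-defined classes, with 1 point per library (orange HFD, blue ND). Insl3, Lhcgr, Prlr and Nr5a1 are highest in Leydig-like cells in all 4 libraries. Inha and Amhr2 are high in Leydig-like and Sertoli-like cells, Inhbb is highest in Sertoli-like cells in all 4 libraries, and Rxfp2 is highest on average in the pachytene and later class. Each panel has its own vertical scale.

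Over 38 sums, one for each class and library with at least 50 cells, the members with the most similar patterns were Inha with Amhr2 (Pearson r of log2(CPM + 1) 0.89) and Insl3 with Lhcgr (r 0.88). Insl3 with Prlr (r 0.86) and Prlr with Nr5a1 (r 0.84) followed. Among 12322 other genes with at least 20 CPM in a class, the most similar were Agt for Insl3 (r 0.96), Asgr1 for Lhcgr (r 0.96), Ndrg2 for Prlr (r 0.96) and C430049B03Rik for Nr5a1 (r 0.97). For Amhr2 and Inha the lists share Defb19 (r 0.95 and 0.89). Snx7 was closest to Inha (r 0.90), Cidea to Inhbb (r 0.87) and 4632411P08Rik to Rxfp2 (r 0.90). Fshr had 6 UMIs in these classes, so nearly all of its sums were 0, and no gene like it is named. The genes next in order were Bhmt and Fabp3 for Insl3, Il17rb and Scd1 for Lhcgr, Prrg3 and Armcx6 for Prlr, Sod3 and Wnt6 for Nr5a1, and Clu and Ldhb for Amhr2. For Inha the third was Ptgr1, for Inhbb they were Alas2 and Wt1, and for Rxfp2 Coq4 and 9530002B09Rik. Clu and Wt1 are among the Sertoli markers that named the cells. The sums of a library share its depth and the classes were formed from gene levels, so these values are descriptions.

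The comparison of the diets asks whether the genes differ between HFD and ND testis. In all kept cells of a library summed together, 6 of the 8 members tested were lower in HFD: Insl3, Prlr, Nr5a1, Lhcgr, Amhr2 and Inhbb. None was higher, and Fshr had too few UMIs to be tested. The test was edgeR's quasi-likelihood test with Benjamini-Hochberg adjustment over the 25485 genes tested, called at an adjusted p under 0.05. In this comparison 34.1% of all genes tested were called, 18.9% as lower and 15.2% as higher in HFD. The median log2 change (HFD over ND) of the 8 tested members was -0.52, beside -0.02 over all genes tested. In sums over all cells, fewer cells of a type and less RNA per cell cannot be told apart.

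Per library, scaled by TMM (a size factor that allows for differing composition), Insl3 had 64.5 and 57.4 CPM (HFD 1 and HFD 2) beside 128 and 79.7 CPM (ND 1 and ND 2). Both HFD libraries were below both ND libraries, and ND 1 was far above ND 2. Its log2 change was -0.77 (SE 0.14, edgeR adjusted p = 0.0005). The size rested on the ND libraries: it was -0.39 without ND 1 and -1.07 without ND 2, and was called in both cases. Prlr had 12.6 and 13.5 CPM in the HFD libraries and 19.9 and 18.9 in the ND libraries, and the diets were well apart. Its log2 change was -0.57 (SE 0.054, edgeR adjusted p = 6.285e-06). Lhcgr had 2.76, 2.40, 3.62 and 3.64 CPM (HFD 1, HFD 2, ND 1 and ND 2), a log2 change of -0.49 (SE 0.096, edgeR adjusted p = 0.00111). The diets did not overlap for this receptor either.

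Nr5a1 had 1.97, 1.59, 2.61 and 2.60 CPM in the same order, with both HFD libraries lower (log2 change -0.55, SE 0.12, edgeR adjusted p = 0.00197). Amhr2 had 4.82, 4.66, 6.59 and 6.69 CPM, again without overlap (log2 change -0.49, SE 0.071, edgeR adjusted p = 0.000114). Inhbb, with 0.215, 0.167, 0.323 and 0.378 CPM from 148 UMIs in all, had a log2 change of -0.87 (SE 0.24, edgeR adjusted p = 0.0124). The call of Inhbb was lost without HFD 2 (adjusted p = 0.11) and without ND 2 (adjusted p = 0.0599). Inha had 4.60, 4.55, 4.79 and 5.94 CPM and did not pass (log2 change -0.23, edgeR adjusted p = 0.0701). It passed without ND 1 (adjusted p = 0.000918, log2 change -0.38). Rxfp2 had 19.3, 17.9, 16.0 and 18.1 CPM, with overlapping diets (log2 change 0.12, edgeR adjusted p = 0.135). It passed as higher without HFD 2 (log2 change 0.18, adjusted p = 0.0247) and without ND 2 (log2 change 0.22, adjusted p = 0.00929). With DESeq2, Insl3 was not called (adjusted p = 0.0708).

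The share of Leydig-like cells moved with these sums. Leydig-like cells were 1.67% ± 0.0846 of kept cells in HFD and 2.59% ± 0.0711 in ND (SD, n = 2 each), and held 1.07% ± 0.0113 and 1.61% ± 0.0161 of the UMIs. The log2 ratio of these shares of UMIs was -0.59. A second cluster with Leydig markers, left unnamed (below), is not part of it and had a higher mean share in HFD. It held 0.294% ± 0.176 of HFD UMIs and 0.163% ± 0.0556 of ND UMIs, a log2 ratio of 0.86. For Sertoli-like cells the HFD libraries had 1.23% ± 0.155 of UMIs and the ND libraries 1.48% ± 0.107, with a log2 ratio of -0.27. The pachytene and later class, where Rxfp2 was highest, held 38.9% ± 1.32 of HFD UMIs and 29.4% ± 0.993 of ND UMIs, with a log2 ratio of 0.40.

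Within Leydig-like cells Lhcgr, Prlr and Nr5a1 were not called. Their log2 changes were -0.03 (approximate 95% interval from the standard error -0.23 to 0.16), -0.06 (-0.23 to 0.10) and 0.02 (-0.20 to 0.25). The libraries of the diets overlapped for each. Such intervals of log2 changes, here and below, are a normal range and are narrower than the test gives. With a second cluster that had Leydig markers joined to the class the changes were -0.24, -0.27 and -0.21, and none was called (adjusted p 0.404 to 0.534). Of the 6 members tested, 1 was called, Amhr2 as lower in HFD. In this comparison 4.1% of the 11681 genes tested were called, 2.12% as lower. The median log2 change of the 6 members was -0.17, beside -0.01 over all genes tested. At an unadjusted p under 0.05 there were 2 members, Insl3 and Amhr2, beside 1916 of the 11681 genes tested.

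Amhr2 had 150, 122, 191 and 172 CPM after TMM scaling in Leydig-like cells of HFD 1, HFD 2, ND 1 and ND 2. Both HFD libraries were below both ND libraries, with a log2 change of -0.41 (SE 0.11, edgeR adjusted p = 0.0230). The call was lost without HFD 2 (log2 change -0.28, adjusted p = 0.248) and without ND 1 (log2 change -0.34, adjusted p = 0.293), and DESeq2 gave this gene no adjusted p. It was also lost when a second cluster with Leydig markers was joined to the class (log2 change -0.59, adjusted p = 0.0807). Insl3 had 5349, 5103, 7988 and 4759 CPM on that scale, with the HFD libraries between the ND libraries (log2 change -0.29, SE 0.11, edgeR adjusted p = 0.162). This value rested on ND 1: without it the log2 change was 0.13 (adjusted p = 0.695), and without ND 2 it was -0.61 (adjusted p = 2.1e-07). Without HFD 1 it also passed (log2 change -0.33, adjusted p = 0.019). Inha had 88.4, 79.5, 84.8 and 119 CPM and did not pass (log2 change -0.28, SE 0.14, edgeR adjusted p = 0.306). ND 2 alone was high for Inha, and 1 Leydig-like cell held 28 of its 253 UMIs. The top cells of HFD 1, HFD 2 and ND 1 held 6, 5 and 5. Jak3, which shares its last exon with Insl3, had a log2 change of -0.38 in Leydig-like cells (edgeR adjusted p = 0.139). In all kept cells Jak3 was called as lower in HFD (log2 change -0.37, edgeR adjusted p = 0.000747). In elongating spermatids, where Insl3 was higher in HFD, the log2 change of Jak3 was -0.35 (edgeR adjusted p = 0.231). Neither Insl3 nor Jak3 was called there. The summed Leydig markers were 12414 and 12927 CPM in the HFD libraries and 15427 and 14894 CPM in the ND libraries, so the sum also moved with the diet. The markers did not all move alike. Hsd3b1 was higher in HFD (1047 and 1039 CPM, against 946 and 958 in ND), and the diets overlapped for Cyp11a1. Each of the other markers was lower in both HFD libraries. The part of the markers in the Amhr2 result was not tested.

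**Figure D3:**
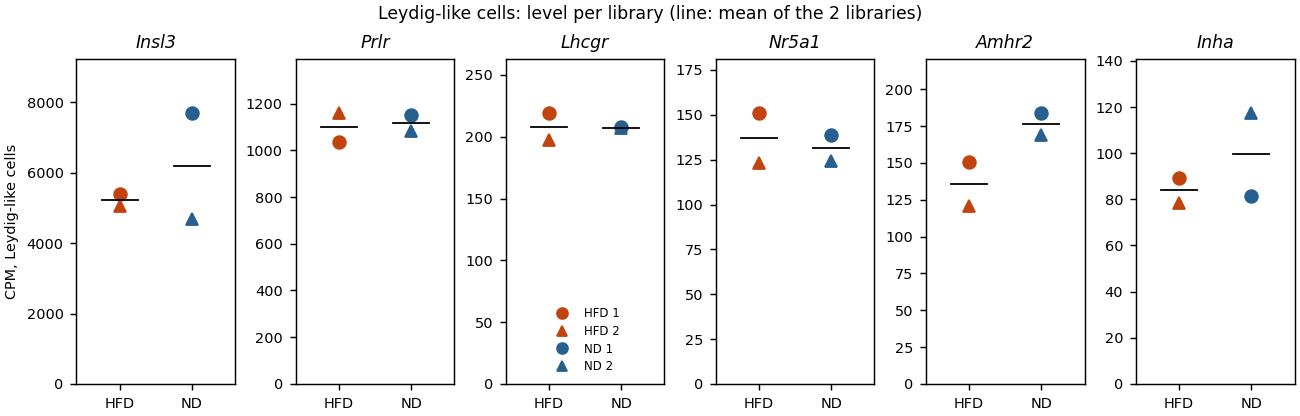
Level in Leydig-like cells, in CPM without TMM scaling, of 6 genes in each library (orange HFD, blue ND, line at the mean of the 2 libraries, each axis from 0). The diets are apart only for Amhr2, with 151 and 121 CPM in HFD against 184 and 169 CPM in ND. For Insl3 the ND libraries at 7688 and 4681 CPM enclose the HFD libraries.

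In Sertoli-like cells none of the 6 members tested was called by edgeR's quasi-likelihood test, where 0.028% of the 10730 genes tested were called, and DESeq2 called none either. At an unadjusted p under 0.05 there was 1, Inhbb, beside 682 of the 10730 genes tested. Amhr2 had a log2 change of 0.03 (approximate 95% interval -0.23 to 0.30) and Inha of 0.04 (-0.25 to 0.32), and the diets overlapped for both. Inhbb had 12.1, 7.29, 13.3 and 18.8 CPM after TMM scaling (HFD 1, HFD 2, ND 1 and ND 2), a log2 change of -0.74 (SE 0.35, edgeR adjusted p = 0.760). Nr5a1 had 9.51, 6.17, 10.3 and 14.1 CPM, a log2 change of -0.65 (SE 0.38, edgeR adjusted p = 0.852). For both genes the HFD libraries were below the ND libraries, at low counts. Rxfp2 had a log2 change of -0.06 (-0.65 to 0.53) and Insl3 of 0.59 (-0.37 to 1.54). For both, the share of thinned Sertoli-like cells with a UMI was not above that of macrophage-like cells.

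The difference of the diet effect between Leydig-like and Sertoli-like cells was tested through a class-by-diet term, fitted with edgeR to the sums of both classes as if those from 1 library were independent. None of 8 members was called, beside 0.0376% of the 13287 genes tested, and DESeq2 called none. Amhr2 alone of the members had an unadjusted p under 0.05, beside 750 of all genes tested. Its log2 change in Leydig-like cells minus that in Sertoli-like cells was -0.47 (SE 0.18, unadjusted p = 0.0128, adjusted p = 0.764 by edgeR's quasi-likelihood test). The difference was -0.34 for Inha (approximate 95% interval -0.76 to 0.07) and 0.65 for Nr5a1 (-0.09 to 1.39).

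**Figure D4:**
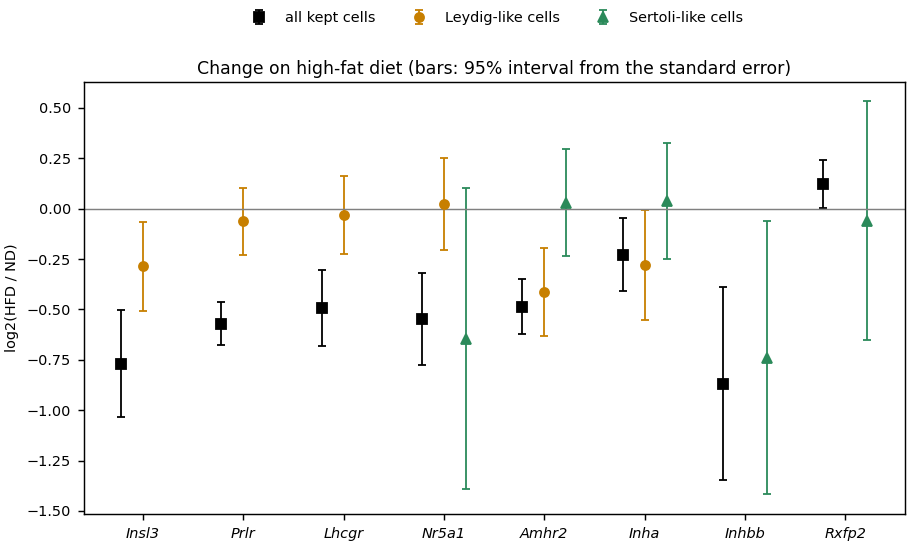
Log2 ratio of HFD over ND from edgeR (vertical axis) for 8 genes in all kept cells (black squares), Leydig-like cells (orange circles) and Sertoli-like cells (green triangles). Bars show an approximate 95% interval, a normal range from the standard error that is narrower than the test gives. The bars of Rxfp2 in all kept cells (0.0034 to 0.24) and Inha in Leydig-like cells (-0.55 to -0.0068) lie on one side of no change. Neither was called, with unadjusted p = 0.062 and 0.0505 by edgeR's quasi-likelihood test. A bar clear of no change is therefore not a call. A symbol is missing where the gene was not tested in the class, and Insl3 in Sertoli-like cells is not drawn. Lhcgr, Prlr and Nr5a1 lie between -0.57 and -0.49 in all kept cells and between -0.06 and 0.02 in Leydig-like cells.

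In the other 7 classes the members could be tested 20 times in all, none of them in macrophage-like or lymphocyte-like cells. None of the 20 was called by edgeR's quasi-likelihood test or DESeq2, beside 2.31% of all genes tested over these classes. At an unadjusted p under 0.05 there were 2 of 5 in elongating spermatids and 1 of 5 in pachytene and later spermatocytes. Of all genes tested there, 3283 of 15164 and 3392 of 17955 were under it. In pachytene and later spermatocytes Insl3 had 1.79, 1.51, 2.40 and 3.01 CPM (HFD 1, HFD 2, ND 1 and ND 2), with the HFD libraries lower (log2 change -0.72, SE 0.17, edgeR adjusted p = 0.0506). Of 15 alternatives run, 11 left it uncalled in the same direction, 0 reversed it, and it passed in the rest. Its log2 change ranged from -0.87 (without ND 1) to -0.54. In elongating spermatids Insl3 went the opposite way, with both HFD libraries higher (log2 change 0.36, SE 0.17, edgeR adjusted p = 0.215). An Insl3 UMI was found in 0.400% of thinned pachytene and later cells and 1.31% of thinned elongating spermatids. Both shares were below the 3.56% of macrophage-like cells, which were shallower (median 2490 UMIs before thinning, against 25134 and 4892). At such unlike depths the comparison cannot decide whether these germ cells express Insl3, and such expression is not shown. Rxfp2 in elongating spermatids had a log2 change of 0.42 (SE 0.17, edgeR adjusted p = 0.121), which passed without ND 2 (log2 change 0.63, adjusted p = 0.0349). In pachytene and later spermatocytes, its highest class, Rxfp2 had a log2 change of -0.01, and in round spermatids of 0.08. Prlr in fibroblast-like cells had a log2 change of -0.31 (SE 0.30, edgeR adjusted p = 0.886), with both HFD libraries below both ND libraries. Leaving out a library also let Insl3 in macrophage-like cells be tested and called as higher in HFD (without HFD 2, ND 1 or ND 2), where 1 cell of HFD 1 held 49 of the 52 UMIs. The count over these classes was then 1 without HFD 2 and 2 without ND 1 or ND 2.

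The other genes of these pathways were taken from 8 lists with 66 genes in all. In all kept cells 22 of the 50 tested were called, 4 higher and 18 lower in HFD, by the same test and beside the same 34.1% of all genes. Their median log2 change was -0.15. DESeq2 called 10 of them. The 4 higher were Smad1, a transducer of bone morphogenetic protein and anti-Müllerian hormone signals (log2 change 0.38), Adcy3, an adenylyl cyclase (0.34), Prkar2b, a regulatory subunit of the cyclic AMP-dependent kinase (0.24), and Acvr1b, a type I activin receptor (0.22). Of the lower genes, those with the largest changes were Tcf21 (-1.39) and Sox9 (-1.11), transcription factors of the gonad's somatic cells, Acvr1c, a further type I receptor of this family (-0.69), and Wt1, a transcription factor of Sertoli cells (-0.59). Sox9 and Wt1 are also Sertoli markers used to name cells. Smad1, Tcf21 and Sox9 kept their calls wherever an adjusted p was given, over the 11 alternatives run. Other calls were lost when 1 library was left out: Acvr1b was lost without any 1 of the 4 libraries (adjusted p 0.0557 to 0.123), Prkar2b without HFD 1, HFD 2 or ND 1 (0.0524 to 0.0876), Adcy3 without ND 2 (0.44), Acvr1c without HFD 2 (0.208), and Wt1 without HFD 1 (0.079) or ND 2 (0.0539). With DESeq2 the calls of Acvr1b (0.0648), Adcy3 (0.0568) and Wt1 (0.112) were lost, and with no filter on low counts those of Acvr1b (0.0623), Adcy3 (0.167) and Acvr1c (0.0527). Acvr1b was also lost with doublets kept (0.0626) and Wt1 at a mitochondrial limit of 10% (0.0834). Of the 9 tested genes listed as partners and relatives of NR5A1, 5 were lower and none higher. Of the list of steroid and thyroid hormone receptors, Esr1, an estrogen receptor (-0.44), Nr3c2, the mineralocorticoid receptor (-0.48), and Thrb, a thyroid hormone receptor (-0.50), were lower. The cyclic AMP pathway below LHCGR and FSHR was split, with 2 of 9 higher and 3 lower. Of the 8 tested genes of the activin, inhibin and follistatin list 1 was higher and 2 lower, and of the 5 tested with anti-Müllerian hormone 1 was higher and 2 lower. The gonadotropin list had 1 lower gene of 3 tested and the prolactin and growth hormone receptor list 1 of 6, and the relaxin list had none of 3.

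In Leydig-like cells 1 of 34 pathway genes tested was called, beside 4.1% of all genes, and their median log2 change was -0.07. This was Tcf21, with 15.8, 20.2, 36.8 and 39.1 CPM after TMM scaling (HFD 1, HFD 2, ND 1 and ND 2). Both HFD libraries were well below both ND libraries (log2 change -1.08, SE 0.23, edgeR adjusted p = 0.00208), and the call was lost without HFD 1 (log2 change -0.91, adjusted p = 0.0554). The count of pathway genes called was 3 without HFD 2 and 2 without ND 2. In Sertoli-like cells none of 18 tested was called by edgeR's quasi-likelihood test or DESeq2, beside 0.028% of all genes, and their median was -0.03. At an unadjusted p under 0.05 there were 3, beside 682 of all 10730 genes tested. In the other classes, Smad1 in elongating spermatids was called as higher in HFD and so was Prkar2b in round spermatids, 1 gene in each. Of all genes tested, 3.57% were called as higher in elongating and 0.37% in round spermatids.

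Ligand genes of 3 other listed receptors are named although they were chosen after their values were seen. Amh, the ligand of AMHR2, had 6 UMIs in Sertoli-like cells and 1 in Leydig-like cells. Fshb, the specific subunit of follicle-stimulating hormone, had 0 UMIs in the 10 classes. Lhb, annotated as the specific subunit of luteinizing hormone, was highest on average in round spermatids, at 22.5 CPM.

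A second cluster had the Leydig list as its best match but stayed unnamed, since its median of 2393 UMIs is low and none of its leading genes (Malat1, Meg3, Snhg11 and others) is on that list. It held 364 cells, 134 and 66 in HFD 1 and HFD 2 and 47 and 117 in ND 1 and ND 2. All 7 Leydig markers were detected in it, at a sum of 1197 to 2580 CPM. Insl3, Prlr and Lhcgr followed the Leydig-like order there. Insl3 had 452 ± 100 CPM, Prlr 262 ± 147 and Lhcgr 34.8 ± 16.4 (all SD, n = 4), all below the Leydig-like class. Both HFD libraries were below both ND libraries for Prlr (mean 159 against 365 CPM), Lhcgr (21.9 against 47.7) and Inha (16.5 against 40.4). Rxfp2 went the opposite way (20.1 against 13.5), and the diets overlapped for Insl3, Nr5a1 and Amhr2. Lhcgr, Inha and Rxfp2 had only 37, 28 and 24 UMIs in the cluster over all libraries. Its summed Leydig markers were also lower in HFD (1197 and 1917 CPM, against 2543 and 2580 in ND). The part of these markers in the differences was not tested. The cluster was not tested on its own. Joined, both clusters made up 2.63%, 2.22%, 2.86% and 3.48% of kept cells in HFD 1, HFD 2, ND 1 and ND 2. This unnamed cluster was 38.7%, 21.9%, 11.4% and 24.2% of the joined cells, so how many cells count as Leydig-like depends on whether it is included.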

How the data were processed

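The deposited matrices hold whole-number UMI counts per gene and barcode, raw per the file headers and values. The build is mm10 per the submitters' processing notes, and the matrix header names software version 3.0.2. The aligner is not given in the sources used here. All 55450 identifiers matched GENCODE M21.

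Kept barcodes had 200 genes or more and no more than 20% of UMIs from mitochondrial genes, and 387, 780, 780 and 665 doublets called by Scrublet (expected rate 0.1) were left out. Clusters came from scanpy 1.11.5 (2000 variable genes less 3 members, 30 components, 15 neighbours, Leiden resolution 1) and were named from 12 marker lists. Counts were summed per library and class (at least 50 cells in each) and tested with edgeR 4.0.16 (filterByExpr, TMM) in R 4.3.3. The test was checked on simulated counts. Of 100 genes changed 2-fold it recovered 90 in whole-testis sums, 78 in Leydig-like and 68 in Sertoli-like sums. Of 100 changed 1.5-fold it recovered 57, 25 and 35, with 11, 6 and 4 false calls in that order. Every simulated gene had the same fixed spread between libraries, which was not taken from the real libraries. These counts therefore do not give the power of the test in the real data. DESeq2 1.42.0 was an alternative. CPM, intervals of shares and thinned shares were computed from the counts. Intervals of log2 changes are a normal range from the standard error and are approximate.

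All 9 members were named. Of the other pathway genes, those called without overlap of the diets were named, up to 4 per compartment and direction by the size of the change, and for each member but Fshr the 3 genes most like it. A few further genes were named after their values were seen. Of the pathway lists, 1 result is not reported here. The members and lists were chosen with earlier results of these data known. The labels do not state that the title numbers pair the libraries, and they were not treated as pairs. The correlation of same-numbered deviations was 0.08 in whole-testis sums and -0.05 in Leydig-like sums. With 2 libraries per diet this cannot decide whether they are paired.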

Additional observations from a re-analysis of the deposited data

Results flagged for a closer look

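Classes count here only if the member had at least 10 UMIs in every library. For 4 pairs of such classes every HFD library was on one side of every ND library in one class. In the other class every HFD library was on the opposite side. Pairs with fewer UMIs, such as Inhbb in pachytene and later spermatocytes and Sertoli-like cells, also occurred and are not listed. In each pair the difference was not tested, and the values below are log2 ratios of mean CPM without TMM scaling. With 2 libraries per diet, such separation can arise by chance. How many other genes have such pairs was not counted, so the pairs are not shown to be particular to these members. Insl3 was higher in HFD in elongating spermatids (0.41) and lower in pachytene and later spermatocytes (-0.74), a difference of 1.15. It was also lower in round spermatids (-0.21), a difference of 0.62 from elongating spermatids. In each of these germ-cell classes the share of thinned cells with an Insl3 UMI was below that of macrophage-like cells, a shallower class. Prlr was higher in HFD in pachytene and later spermatocytes (0.32), at 85 UMIs in all, and lower in fibroblast-like cells (-0.31), at 105 UMIs, a difference of 0.63. Amhr2 was higher in HFD in elongating spermatids (0.13) and lower in Leydig-like cells (-0.38), a difference of 0.51. With 2 libraries per diet, 1 of these classes had a called change, that of Amhr2 in Leydig-like cells.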

How the results depend on the processing

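The whole-testis count of 6 called members was 6 under RLE size factors, no filter on low counts, doublets kept, a mitochondrial limit of 10%, cells with at least 2000 UMIs and without the top cell of each member, was 4 with DESeq2 (which gave Inhbb no adjusted p) and ranged from 6 to 7 when a library was left out. Of these, 1 was Rxfp2 as higher, in place of Inhbb, without HFD 2 and without ND 2. The last 2 of these cell choices, and the joining of both Leydig clusters, were chosen after seeing the data. In Leydig-like cells the member count of 1 was 0 with DESeq2 (which gave Amhr2 no adjusted p) and with both Leydig clusters joined, 2 with no filter and with doublets kept, and 0 to 2 when a library was left out. Over the other classes the count of 0 became 1 with RLE size factors, doublets kept, a mitochondrial limit of 10%, member genes used in clustering, a marker gate on single cells and cells with at least 2000 UMIs, 2 with no filter, and 0 to 2 when a library was left out. Pathway genes called in the whole testis fell from 22 to 10 with DESeq2 and to 12 with no filter. In Leydig-like cells the count of 1 became 0 with DESeq2, 5 with doublets kept, 2 with a mitochondrial limit of 10% and 1 to 3 when a library was left out, and in Sertoli-like cells the 0 became 1 with the marker gate. The cause of these shifts was not tested. The member counts of 0 in Sertoli-like cells, and for the difference between Leydig-like and Sertoli-like cells, were 0 under each alternative run.

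With the replicate block the member count was 8 in the whole testis (Inha and Rxfp2 then passed) and 0 in Leydig-like cells (Amhr2 adjusted p = 0.173), and the pathway count in Leydig-like cells was 0. Whether the numbers pair the libraries is not known, so this says nothing of a weaker effect.

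Of 496 values of single genes under an alternative, 427 kept direction and call, 28 lost the call, 15 gained one and 26 changed sign, none of these 26 in a called result. The 427 include values for which DESeq2 gave no adjusted p, such as Amhr2 in Leydig-like cells and Inhbb in the whole testis. Those were not called by DESeq2, so the 28 lost calls are a low count. In Leydig-like cells the changed signs were Insl3 0.13 without ND 1, Lhcgr 0.024 without HFD 2 and 0.017 with the gate, Prlr 0.023 without HFD 1, and Nr5a1 -0.0088 with no filter, -0.12 without HFD 1, -0.07 without ND 2, -0.10 with doublets kept, -0.10 at the 10% limit and -0.21 with the clusters joined. In Sertoli-like cells Amhr2 was -0.03 without HFD 1, -0.072 without ND 1, -0.0091 at the 10% limit, -0.017 with members in clustering and -0.26 with the gate. Inha there was -0.04, -0.12, -0.016, -0.0082 and -0.087 in the same order. Rxfp2 there was 0.15 without HFD 2, 0.09 without ND 2 and 0.10 in cells with at least 2000 UMIs, and in pachytene and later spermatocytes 0.032 without HFD 2, 0.092 without ND 2 and 0.011 with members in clustering.

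When a library was left out, log2 changes in Leydig-like cells ranged from -0.61 to 0.13 for Insl3, to 0.14 for Nr5a1 (without HFD 2) and from -0.16 for Prlr, and in Sertoli-like cells up to 0.20 for Inha and down to -0.28 for Rxfp2. With 2 libraries per diet, single libraries decide several calls. Fshr at 8 UMIs and Inhbb at 148 UMIs are limited by depth.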
